A study of Homo sapiens with 16 samples.

Results

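The high-grade serous ovarian cancer line CAOV4 and its cisplatin-resistant derivative CAOV4cis shared 11060 autosomal H3K27ac regions wider than 2 kb, and 3076 of these had no H3K27ac peak in any list of the endometrioid A2780 lineage. These 3076 regions are here called CAOV4-lineage regions. They were chosen by the positions of the listed H3K27ac peaks, that is by merging the H3K27ac peaks of CAOV4 and CAOV4cis wherever they shared at least 1 bp, by keeping merged regions over 2000 bp with a peak in both lines, and by leaving out every region touched by a peak of A2780, of A2780cis, or of A2780 cells with the shRNA shMBD3.26 or shMBD3.232. The merged H3K27ac peaks of CAOV4 and CAOV4cis gave 32191 autosomal regions in all, and the peaks of all 8 lists of the series gave 58336.

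H3K27ac is a histone mark deposited by acetyltransferases at active enhancers and promoters, whereas enhancers that are not in use in a cell type generally lack it. The enhancers that carry it differ more between cell lineages than promoters do, so that its distribution is commonly used to tell cell types apart. Broad stretches of clustered H3K27ac, often called super-enhancers, are known to lie near genes that define the identity of a cell. H3K9ac is a second acetylation of the same histone tail that is also found at active promoters and enhancers.

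CAOV4 and A2780 cells were untreated, cPt-sensitive lines of different histological subtypes of epithelial ovarian cancer. CAOV4cis was derived from CAOV4 by culture in increasing concentrations of cPt, and CAOV4cis and A2780cis, the resistant derivative of A2780, were kept in medium with cPt. The cells with shMBD3.26 or shMBD3.232 were A2780 cells carrying a doxycycline-inducible shRNA against *MBD3*, a core subunit of the NuRD complex, sorted for the GFP reporter after 1 week of knockdown. All samples were cultured lines profiled with 1 library per condition, so that no difference between lines has a replicate check and no p-value is given. H3K9ac was profiled in A2780 and A2780cis. Input libraries and control shRNA cells were not analysed here.

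The 6 H3K27ac lists held between 18936 and 27932 autosomal peaks. The H3K9ac list of A2780 held 22438 and that of A2780cis 15058. The lists give the start and end of each peak and no signal, and read depth is unknown. A region without a listed peak may therefore still carry signal below the threshold of the authors. Every 200 bp there is a possible boundary, and no gap between neighboring peaks is under 1000 bp, so that a listed peak may join several enriched stretches. All positions are given in GRCh37/hg19, the build of the submitters' processing notes. No annotation of that build was used, so that regions are named by position and not by gene.

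The CAOV4-lineage regions made up 27.8% of the regions over 2 kb that CAOV4 and CAOV4cis shared, a share that follows from the rule and is given as a description. Each list of the A2780 lineage touched a similar part of the shared regions. A2780 peaks touched 66.6% of them, A2780cis peaks 64.0%, shMBD3.26 peaks 63.9% and shMBD3.232 peaks 62.1%. Regions were mostly present in all 4 of these lists or in none. All 4 lists had a peak at 6278 regions, or 56.8%, whereas 689 regions had one in 1 list, 479 in 2 lists and 538 in 3 lists. In the opposite direction, 2804 of the 11688 regions over 2 kb shared by A2780 and A2780cis had no peak in CAOV4 or CAOV4cis, or 24.0%. Only the lists of CAOV4 and CAOV4cis excluded regions there, against 4 lists for the CAOV4-lineage regions. With only A2780 and A2780cis to exclude, the CAOV4-lineage share was 29.9%.

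Some regions lay close to the limits of the rule. Just inside the width limit were 105 regions of 2200 bp, and just outside it were 96 otherwise matching regions of 2000 bp. Of the 689 regions touched by 1 list of the A2780 lineage, 123 were touched over no more than 200 bp, which is 1 step of the grid. Conversely, 24 CAOV4-lineage regions directly abutted a peak of the A2780 lineage, and 101 lay within 1 kb of one. Among the shared regions of up to 2000 bp, which the rule left out, 450 of 977 had no A2780-lineage peak, or 46.1%.

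The CAOV4-lineage regions had a median width of 5000 bp and covered 20.3 Mb in total. Their quartiles were 3400 and 7600 bp, and the widest 308 regions, or 10%, held 29.2% of the covered length. Over 10 kb in width were 453 regions, over 20 kb 86, and over 50 kb 6. The 7984 shared regions with a peak of the A2780 lineage were similar in width, with a median of 5400 bp and quartiles of 3800 and 8200 bp. Regions without such a peak became less frequent among wide regions, from 30.6% (95% Wilson interval 29.3% to 31.8%) of those up to 5 kb to 19.3% (15.9% to 23.2%) of the 446 over 20 kb. A wide region has more room to be touched by a peak of another list, and its part in this decline was not tested. The intervals cover counting error only.

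Widths of the corresponding A2780-lineage regions, which were listed in A2780 and A2780cis but not in CAOV4 or CAOV4cis, were distributed differently. Their median was lower, at 4000 bp, but their upper tail was longer, with 43 regions over 50 kb against 6 among the CAOV4-lineage regions. The widest 280, or 10%, held 42.7% of their covered length. Fewer lists excluded these regions than excluded the CAOV4-lineage regions, so that the sets are not fully alike. The lists differed as well, with a median peak width of 2800 bp in A2780cis and of 2200 bp in A2780, CAOV4 and CAOV4cis. Among regions with a peak of the other lineage, 49 of 8884 from A2780 and A2780cis were over 50 kb. From CAOV4 and CAOV4cis, 30 of 7984 were.

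**Figure D1:**
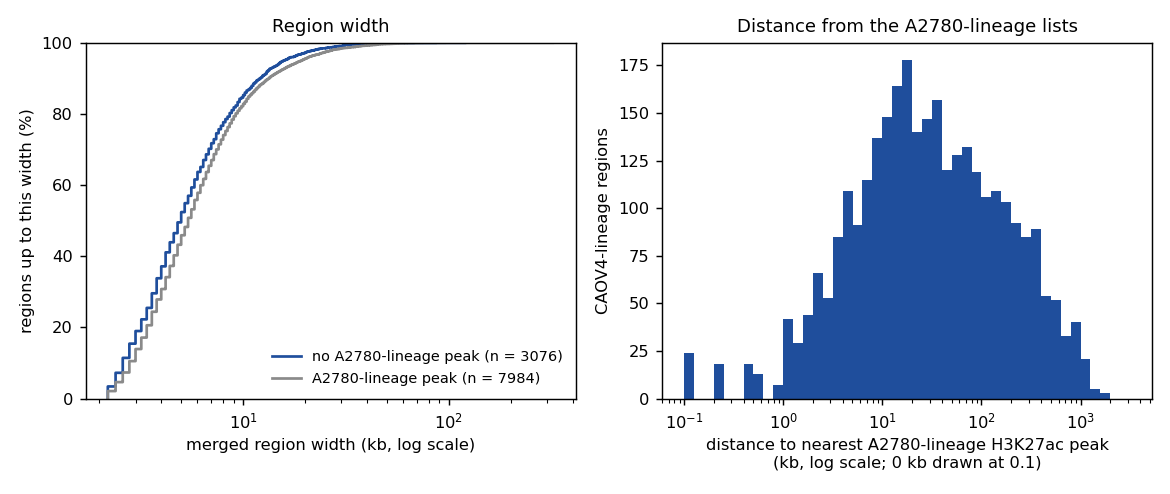
Left, cumulative share of merged regions (y axis, %) up to a given width (x axis, kb, log scale) for the 3076 CAOV4-lineage regions and the 7984 shared regions with an A2780-lineage peak, with medians of 5.0 and 5.4 kb. Right, number of CAOV4-lineage regions by distance to the nearest A2780-lineage H3K27ac peak (kb, log scale, abutting regions drawn at 0.1), which spread around a median of 27.6 kb and reached 1973 kb.

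CAOV4-lineage regions lay at very different distances from A2780-lineage H3K27ac. The median distance to the nearest H3K27ac peak of the A2780 lineage was 27.6 kb, with quartiles of 8.6 and 103.4 kb. Within 5 kb of such a peak lay 508 CAOV4-lineage regions, or 16.5%, whereas 791, or 25.7%, lay more than 100 kb and 29 more than 1 Mb away. Regions far from any A2780-lineage peak were wide more often. Of those more than 100 kb away, 21.0% (18.3% to 24.0%) were over 10 kb in width, against 9.45% (7.20% to 12.3%) of those within 5 kb. The rule left out any region touched by an A2780-lineage peak, and a wide region near such a peak is touched more readily. The part of the rule in this difference was not tested.

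H3K9ac was not part of the rule and gave a separate view of the same loci in A2780 and A2780cis. Of the CAOV4-lineage regions, 152 had an H3K9ac peak in A2780, or 4.94% (4.23% to 5.77%). In A2780cis 47 had one, or 1.53% (1.15% to 2.03%). Across all 11060 shared regions these shares were 55.7% and 53.3%. Shared regions with an A2780-lineage H3K27ac peak carried H3K9ac far more often, 75.3% of them (74.3% to 76.2%) in A2780 and 73.3% (72.3% to 74.2%) in A2780cis. H3K9ac peaks covered 0.601% of the length of the CAOV4-lineage regions in A2780 and 0.163% in A2780cis, against 36.5% and 39.1% of the length of the other shared regions. The A2780 and A2780cis lists of both marks come from the same cell lines, so that the H3K9ac lists are other libraries but not other cells.

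The low H3K9ac share held in every width class. It lay between 4.09% and 5.99% in A2780 from the class of 2 to 5 kb to that over 20 kb, where 4 of 86 regions had a peak, while among the other shared regions it went from 71.6% to 87.2%. The H3K9ac share also followed the number of A2780-lineage lists with an H3K27ac peak. In A2780 it was 18.1% for regions touched by 1 list, 29.6% for 2 lists, 43.9% for 3 lists and 87.7% for all 4 lists. Regions with 1 list thus stood between the CAOV4-lineage regions and the widely shared ones, with an interval of 15.4% to 21.2% that covers counting error only.

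**Figure D2:**
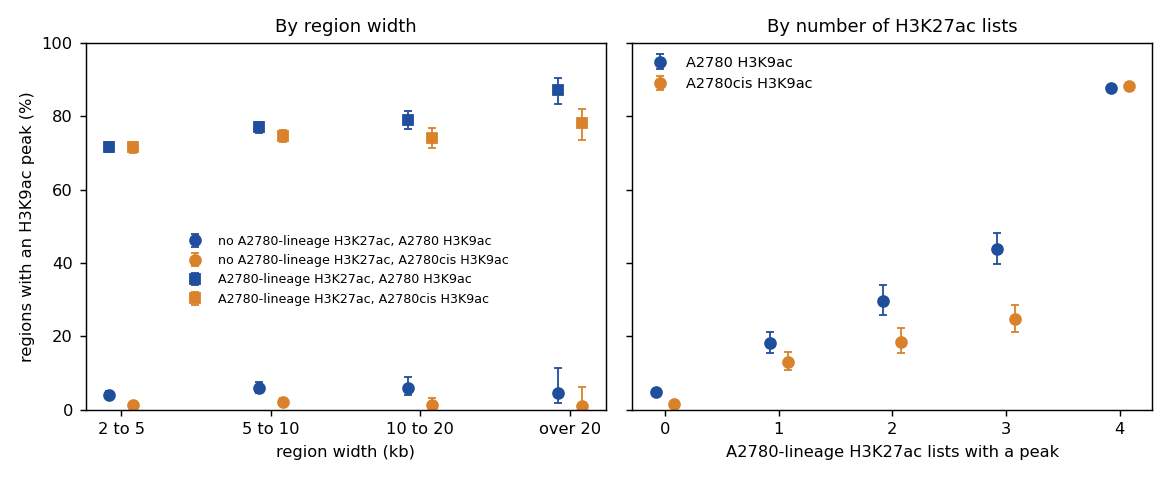
Share of regions with an H3K9ac peak (y axis, %), drawn separately for A2780 (blue) and A2780cis (orange), by region width (left, kb; circles, no A2780-lineage H3K27ac peak; squares, with one) and by number of A2780-lineage H3K27ac lists with a peak (right). Bars are 95% Wilson intervals; for the CAOV4-lineage regions the share lies between 4.09% and 5.99% in A2780 and between 1.16% and 2.08% in A2780cis, and for the other shared regions it is at least 71.5% in either line.

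H3K9ac peaks were nevertheless listed in at least 1 of both lines at 189 CAOV4-lineage regions, or 6.14%, against 62.3% of all shared regions. In 142 of these the peak was found in A2780 alone, in 37 in A2780cis alone and in 10 in both. The peaks at these regions were narrow, with a median width of 600 bp in A2780 and 400 bp in A2780cis. The whole H3K9ac list of A2780 was the larger one, with 22438 autosomal peaks against 15058 in A2780cis. Its median peak width was 1600 bp, against 2600 bp in A2780cis. The part of these list differences in the counts of the 2 lines was not tested. The share of CAOV4-lineage regions with an H3K9ac peak was higher near A2780-lineage H3K27ac. More than 5 kb from it lay 113 of the 189, against 2568 of all 3076 CAOV4-lineage regions. Of the CAOV4-lineage regions within 5 kb of an A2780-lineage H3K27ac peak, 15.0% (12.1% to 18.3%) had H3K9ac in either line, whereas 3 of the 791 regions more than 100 kb away did, or 0.379% (0.129% to 1.11%).

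The rule required a peak in both CAOV4 and CAOV4cis, so that the values of this pair are given as a description. In total, H3K27ac peaks covered 15.7 Mb of the CAOV4-lineage regions in CAOV4 and 15.8 Mb in CAOV4cis. Per region, the median ratio of the length covered in CAOV4cis to that in CAOV4 was 1.03, with 1556 regions covered more in CAOV4cis, 1415 more in CAOV4 and 105 equally. For the other shared regions the median ratio was 1.09, with 4500 covered more in CAOV4cis, 3185 more in CAOV4 and 299 equally. Single regions varied far more than the median. In CAOV4cis, 501 regions, or 16.3%, had more than 2 times the covered length of CAOV4, and 437, or 14.2%, had less than 0.5 times. Both shares were lower for the other shared regions, 11.9% and 7.69%. Among the 453 regions over 10 kb these shares were 6.18% and 9.27%, against 4.81% and 3.35% of the other shared regions over 10 kb. The part of a region covered in both lines had a median of 50% over all CAOV4-lineage regions and of 66.7% over those wider than 10 kb. For the other shared regions it was 60.7% and 70.4%, respectively.

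CAOV4-lineage regions were found on all 19 autosomes with listed peaks, but their share among the shared regions differed between chromosomes. On chromosome 8 they numbered 239 of 523, or 45.7% (41.5% to 49.98%), the highest share. Chromosome 18 followed with 47 of 118, or 39.8% (31.5% to 48.8%), and chromosome 10 with 262 of 698, or 37.5% (34.0% to 41.2%). The intervals take regions as independent, although neighboring regions were often of the same class. They therefore do not settle the order of the chromosomes. Chromosome 19 had the lowest share, with 39 of 597 regions, or 6.53% (4.82% to 8.81%), and was followed by chromosome 16 with 18.96% (16.3% to 22.0%) and chromosome 1 with 19.3% (17.0% to 21.9%). By number, chromosome 11 held the most, with 306 regions that covered 2.04 Mb.

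The number of listed peaks also differed between the lineages by chromosome. The mean number of H3K27ac peaks per list was 1.42 times as high in the CAOV4 pair as in the A2780 lineage on chromosome 8 and 0.660 times on chromosome 19. Shares and peak numbers did not always go together, since this ratio was 0.767 on chromosome 18 and highest on chromosome 14, at 1.504, where 31.9% of the shared regions were CAOV4-lineage regions. The part of peak numbers in the shares was not tested.

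**Figure D3:**
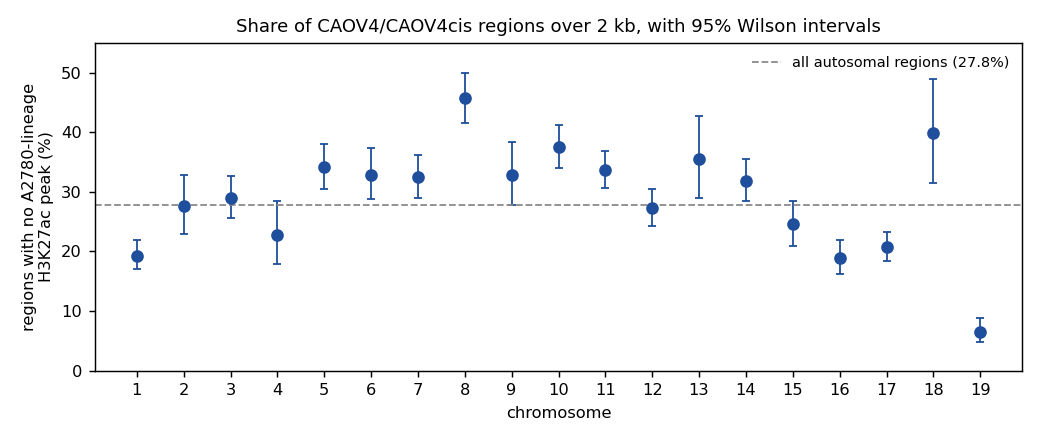
Share of shared CAOV4 and CAOV4cis regions over 2 kb without an A2780-lineage H3K27ac peak (y axis, %) on each chromosome with listed peaks (x axis). Bars are 95% Wilson intervals, and the share over all these autosomes of 27.8% is a dashed line. Chromosome 8 lies highest at 45.7% and chromosome 19 lowest at 6.53%.

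Along the chromosomes, CAOV4-lineage regions lay next to each other. The next shared region after a CAOV4-lineage region was again one in 48.6% (46.8% to 50.3%) of cases, against 19.8% (18.96% to 20.7%) after a region with an A2780-lineage peak. In 1491 of 11041 pairs of neighboring regions both were CAOV4-lineage regions, or 13.5%, where the shares on each chromosome without any order would give 933, or 8.45%. Only pairs at least 12500 bp apart gave 11.3% against 8.61%. The regions formed 1585 uninterrupted runs. A run of 1 was formed by 985 regions, or 32.0%, and 111 runs of at least 5 regions held 859, or 27.9%.

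The longest run had 25 regions and lay on chromosome 8 from 68384601 to 70557800. Its regions covered 198.6 kb of 2173 kb, and no list of the A2780 lineage had a peak in between. The next run, of 23 regions with 266.8 kb covered, spanned 100850401 to 101885600 on chromosome 11. Chromosome 10 held a run of 22 regions with 225.2 kb covered, which spanned 8634201 to 9288000. The remaining pair had 18 regions each. One spanned 116696801 to 117338800 on chromosome 8 with 284.6 kb covered, and the other spanned 70369401 to 71015800 on chromosome 11 with 134.4 kb covered. Of these 5 spans, that on chromosome 11 from 100850401 held 2 A2780-lineage peaks, which lay between the shared regions, and the others held none.

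The intervals between neighboring A2780-lineage H3K27ac peaks describe the same regions from the side of A2780. Every shared region over 2 kb inside such an interval is a CAOV4-lineage region by the rule. The values below therefore restate the rule in part and are no separate evidence of clustering. A CAOV4-lineage region was found in 1813 of 36109 such intervals, and 86 intervals with at least 5 of them held 708 regions, or 23.02%. Intervals with a CAOV4-lineage region were long, with a median of 77.6 kb against 8.6 kb for those without one. Among the 367 intervals of over 1 Mb without any A2780-lineage peak, 143 held at least 1 CAOV4-lineage region, or 39.0%, and 448 of the regions lay there. An interval has more room for a region the longer it is, which alone gives a difference in this direction.

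The 5 CAOV4-lineage regions farthest from any A2780-lineage peak were narrow to moderate in width. The first, on chromosome 8 from 35570801 to 35578000, lay 1973 kb away from the nearest one, and H3K27ac covered 5.0 kb of it in CAOV4 and 6.4 kb in CAOV4cis. A second region, in the same interval from 35233801 to 35238000, was 1694 kb away, and the interval held 14 CAOV4-lineage regions in 4011 kb. A pair on chromosome 5, at 25447001 to 25450200 and at 12573801 to 12576000, lay 1767 and 1427 kb away, and a region on chromosome 11 at 91754401 to 91758400 lay 1517 kb away. The pair on chromosome 5 were the only CAOV4-lineage regions of their intervals.

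Stitching the CAOV4-lineage regions at 12500 bp, the default distance of the ROSE tool for super-enhancers, gave 2454 clusters. A cluster with at least 2 members was formed by 1030 regions, or 33.5%. This share was not compared with that of the other shared regions. It is given as a description of lists in which neighboring peaks can lie 1000 bp apart. At least 5 members were found in 20 clusters. Within its span, 18 clusters enclosed an A2780-lineage H3K27ac peak and 2436 did not. Of the latter, 27 had more than 50 kb covered. The 10 with the most covered length lay on 8 chromosomes, with chromosomes 8 and 11 holding 2 each.

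The broadest cluster lay on chromosome 5 from 35127801 to 35322800 and was made of 10 regions. H3K27ac peaks covered 150.0 kb of its 195.0 kb in CAOV4 and 140.4 kb in CAOV4cis. By the choice of clusters it held no H3K27ac peak in A2780, A2780cis or the cells with either shRNA. It also held no H3K9ac peak in A2780 or A2780cis. The nearest A2780-lineage peaks lay 123.6 kb to the left and 156.6 kb to the right. This cluster stood 10th among the 12565 clusters of CAOV4 stitched in the same way and 15th among the 13016 of CAOV4cis.

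A pair of clusters shared 1 interval of 1173 kb on chromosome 11 that no A2780-lineage H3K27ac peak interrupted. The broader one, from 101161601 to 101338800, had 9 regions, with 122.2 kb covered in CAOV4 and 118.6 kb in CAOV4cis. The other, from 100890801 to 101001000, had 8 regions, and CAOV4cis covered more of it than CAOV4, with 91.2 kb against 84.2 kb. The nearest H3K9ac peak of A2780 lay 394.0 kb from the former and 731.8 kb from the latter.

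The cluster on chromosome 14 from 94758001 to 94895800 was distinct in its make-up. It consisted of a region of 7.4 kb and of the widest CAOV4-lineage region of all, which measured 121.2 kb from 94774601 to 94895800. In CAOV4 this region held 2 peaks that covered 113.2 kb, the longer of which measured 76.4 kb. In CAOV4cis it held 3 peaks that covered 118.8 kb, up to 83.8 kb in length. The H3K27ac lists of the A2780 lineage were empty there by the choice of clusters, and both H3K9ac lists were empty as well.

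On chromosome 8, the cluster from 116785201 to 116917200 had 4 regions and was covered by H3K27ac over 119.0 kb in CAOV4 and 123.4 kb in CAOV4cis, or 90.2% and 93.5% of its span. It belonged to the interval with the run of 18 regions on this chromosome, in which 18 CAOV4-lineage regions took up 36.6% of 776.6 kb. The second cluster of this chromosome, from 102430801 to 102552400, had 5 regions, with 107.0 kb covered in CAOV4 and 102.6 kb in CAOV4cis. In CAOV4cis it was part of a longer stitched cluster with 163.0 kb covered, which ranked 5th in that line, whereas in CAOV4 the corresponding cluster had 108.0 kb and ranked 32nd.

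The remaining 4 of the 10 broadest clusters lay on chromosomes 10, 17, 6 and 3. The cluster on chromosome 10 from 9057001 to 9194000 had 97.0 kb covered in CAOV4 and 91.6 kb in CAOV4cis and lay in an interval of 3395 kb without any A2780-lineage H3K27ac peak. Within this interval, 22 CAOV4-lineage regions took up 6.63% of the length. The cluster was part of a longer stitched cluster in each line. That cluster had 173.4 kb covered in CAOV4, where it ranked 7th, and 189.0 kb in CAOV4cis, where it ranked 4th. On chromosome 17, 7 regions from 39051401 to 39183800 had 81.2 and 80.2 kb covered in CAOV4 and CAOV4cis. A single region made up the cluster on chromosome 6 from 12273001 to 12359800, where 2 peaks covered 85.4 kb in CAOV4 and 4 peaks covered 79.2 kb in CAOV4cis.

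The cluster on chromosome 3 from 4751201 to 4832600 had 61.6 kb covered in CAOV4 and 69.0 kb in CAOV4cis. It was the only one of these 10 clusters with an H3K9ac peak, which measured 1.4 kb and was listed in A2780 but not in A2780cis. Over the 10 clusters the covered length ran from 61.6 to 150.0 kb in CAOV4 and from 69.0 to 140.4 kb in CAOV4cis, values that also entered the choice of these clusters.

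**Figure D4:**
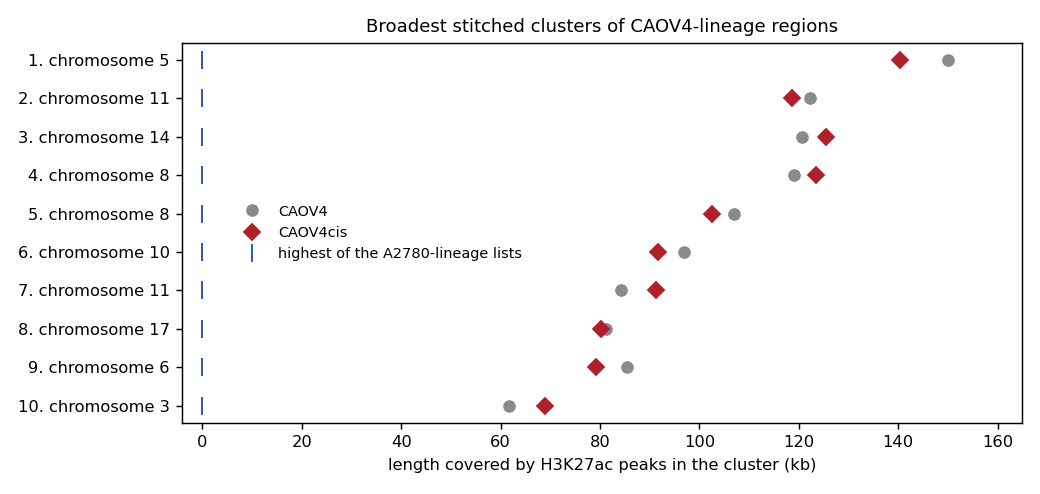
Length covered by H3K27ac peaks (x axis, kb) in the 10 broadest stitched clusters of CAOV4-lineage regions (y axis, ranked by covered length) in CAOV4 (circles) and CAOV4cis (diamonds). A bar marks the highest value of the 4 A2780-lineage lists, which is 0 because clusters that enclosed such a peak were left out. CAOV4 runs from 61.6 to 150.0 kb and CAOV4cis from 69.0 to 140.4 kb, in clusters that the rule required to have peaks of both lines.

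**Figure D5:**
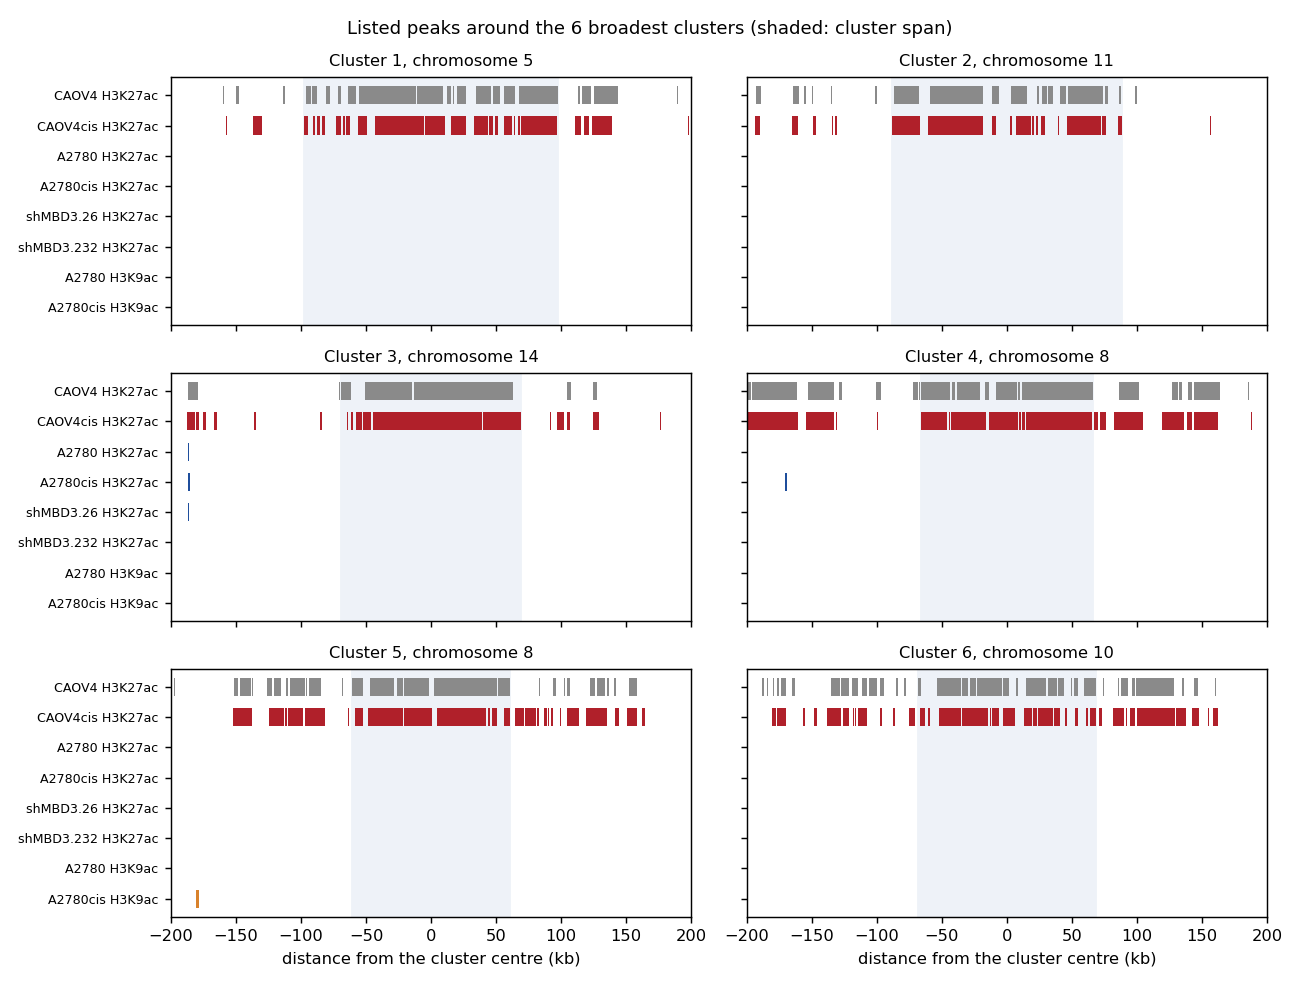
Listed peaks (horizontal bars) of the 6 H3K27ac and 2 H3K9ac lists (y axis) within 200 kb of the centre of the 6 broadest clusters (x axis, distance in kb), with the cluster span shaded. Peaks of CAOV4 and CAOV4cis fill the shaded spans and recur on both sides. The A2780-lineage H3K27ac lists are empty in all 6 spans by the choice of clusters, and the H3K9ac lists are empty there as well.

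Of the 10 widest single CAOV4-lineage regions, 6 belonged to these clusters. The others were more varied in their surroundings. The region on chromosome 4 from 116544401 to 116598000 measured 53.6 kb, with 49.8 kb covered in CAOV4 and 45.8 kb in CAOV4cis, and was isolated, with 1 other CAOV4-lineage region in an interval of 719.6 kb. On chromosome 11, the region from 34637801 to 34681200 measured 43.4 kb and shared its interval of 456.4 kb with 9 others. By contrast, the regions at 133141801 to 133189600 of chromosome 3 and at 129128001 to 129171600 of chromosome 8, of 47.8 and 43.6 kb, lay only 9.6 and 15.8 kb from an A2780-lineage H3K27ac peak.

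Clusters of CAOV4-lineage regions made up similar shares of the broadest clusters of either line and of all of its clusters, although the bases are unlike. Among the 500 clusters with the most covered length, 72 in CAOV4, or 14.4% (11.6% to 17.7%), and 54 in CAOV4cis, or 10.8% (8.37% to 13.8%), held CAOV4-lineage regions and no A2780-lineage peak. Among all clusters these shares were 13.0% (12.4% to 13.6%) and 12.3% (11.8% to 12.9%). Of the first 100 clusters, 12 in each line did. All clusters of a line include those of peaks not found in the other line or in regions up to 2000 bp. Such clusters cannot hold a CAOV4-lineage region by the rule. Among the shared regions, the CAOV4-lineage share fell with width, from 30.6% up to 5 kb to 19.3% over 20 kb.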

How the data were processed

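ChIP-seq libraries of H3K27ac (6 lists) and H3K9ac (2 lists) were analyzed as the BED peak lists that the authors deposited, 1 per sample. Per their methods, mononucleosomes were prepared by MNase with a *D. melanogaster* spike-in from cells washed with a deacetylase inhibitor, reads were aligned with Bowtie2 on Galaxy, data were quantile normalized with an R script, and peaks were called with MACS2. Versions, call thresholds and the step that set the 200 bp grid and the smallest gap of 1000 bp between peaks are not given in the sources used here, and whether the lists are direct MACS2 output was not tested. The score column is 0 throughout and was not used. No genome of the build was given, so that no sequence or gene is printed.

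Autosomal peaks were merged at 1 bp of overlap. Members were classed by the lists touching them, and stitched at 12500 bp. Shares have 95% Wilson intervals. Named regions are the 10 widest, the 10 clusters with the most covered length and no A2780-lineage peak, the 5 longest runs and the 5 farthest regions. Members and comparisons were chosen with earlier results of these data known. Alternatives were other overlaps, distances, widths, lists and stitching. The classing was tested on simulated data. Python 3.11.15, numpy 2.4.6, pandas 2.3.3, SciPy 1.17.1 and matplotlib 3.10.9 were used.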

Additional observations from a re-analysis of the deposited data

How the results depend on the processing

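The number of CAOV4-lineage regions moved by over 1.5 times under the width settings. It fell to 1464 with a width over 5000 bp, to 453 over 10000 bp and to 1895 with a peak over 2000 bp in each CAOV4 list, settings that keep fewer regions by construction. Their share of the shared regions, 27.8%, was 25.3%, 24.8% and 24.0% under these 3 settings and 29.3% with no width limit. It was 26.9% and 23.2% with A2780-lineage peaks within 1 and 5 kb counted, 29.9% with only A2780 and A2780cis to exclude, 26.1% with the H3K9ac lists added, 29.2% with each list cut to its 18936 widest peaks and 33.6% with the wider 50% of each list. Leaving out each A2780-lineage list in turn gave between 28.4% and 30.1%, or 3141 to 3327 regions. The median width of 5000 bp became 6400 bp with a peak over 2000 bp in each list, 5200 bp with equal numbers of peaks and 6600 bp with the wider 50%. The H3K9ac share of 6.14% became 15.3% within 5 kb, 7.38% for regions over 5000 bp and 0.813% with H3K9ac peaks over 2000 bp. Neighboring pairs of CAOV4-lineage regions made up 11.3% at distances of at least 12500 bp and 12.4% for regions over 5000 bp. The other 28 of 52 recomputed values lay within 1.5 times of the reported count or within the interval of the reported value. Among them were all those for the number of stitched clusters and for the ratio of CAOV4cis to CAOV4. The make-up of the clusters was not among the 52 values and did depend on the stitching distance. Clusters with at least 5 members numbered 8 at 5 kb and 44 at 25 kb, against the reported 20. The share of regions in clusters with at least 2 members was 23.3% and 44.0%, against the reported 33.5%. With 1 library per condition, these settings do not replace replicates, and the read depth behind single peaks is unknown.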

Other observations

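Chromosomes 20, 21 and 22 had no listed peak. On each of chromosomes 1 to 12 the last listed peak of any list ended megabases before the human chromosome does, at positions between 121209200 on chromosome 12 and 197193000 on chromosome 1. The counts of CAOV4-lineage regions therefore leave out the ends of these 12 chromosomes and all of chromosomes 20 to 22. The only boundary of the 8 lists off the grid of 200 bp was the end of a peak on the mitochondrial chromosome in the A2780 H3K27ac list, at 16299. This is the length of the mouse mitochondrial genome, and 19, the number of autosomes with listed peaks, is the number of mouse autosomes.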
